A study of Homo sapiens with 6 samples.

Results

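The collagen genes were examined in WM164 melanoma cells that carried either an empty expression vector (EV) or an HDAC8 expression vector. They were taken as every protein-coding gene in the table whose symbol is COL, a number, A and a number, without regard to expression. This gave 44 genes of 60504, or of 19664 protein-coding genes, and covered 28 collagen types. The rule reads symbols alone, so it selects genes that encode collagen chains and leaves out other proteins with a collagen-like stretch.

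WM164 is an established human melanoma line, and all 6 libraries carried the BRAFV600E genotype. The 3 EV libraries and the 3 HDAC8 libraries are named here by group and replicate number. Both vectors were introduced by transfection with antibiotic selection, and whether each line was 1 clone or a pool is not given in the sources used here. HDAC8 is a class I histone deacetylase, an enzyme that removes acetyl groups from proteins. The comparison addresses which transcripts differ between cells labelled as carrying its vector and cells labelled as carrying the empty vector. The labels number the libraries as biological replicates without saying whether they came from separate cultures, so the p-values measure the spread between these libraries.

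Collagens are the main structural proteins of the extracellular matrix. Each is a trimer of chains that wind around each other, and the chains of one molecule can be copies of a single gene product or the products of several genes. Fibrillar collagens build the cables of skin, bone and tendon. Type IV forms the sheets of basement membranes, type VI forms beaded filaments close to the cell surface, type VII anchors the epidermis to the dermis, and the FACIT collagens sit on the surface of fibrils. The transmembrane collagens stay in the plasma membrane until their outer part is shed. Melanoma cells make some of these proteins themselves, although fibroblasts are the main source of fibrillar collagen in skin.

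Total counts ran from 34741083 to 42041462 per library. The HDAC8 transcript had normalized counts of 383.8, 404.4 and 478.8 in EV and of 484.8, 445.5 and 473.7 in the libraries labelled HDAC8. The log2 difference of 0.15 did not pass (DESeq2 adjusted p = 0.856), and its upper 95% limit was 1.63-fold. The transcript did not separate the groups, so each direction below is between libraries as they were labelled. Mitochondrial transcripts took 9.66% to 12.8% of the counts in EV and 4.46% to 7.94% in HDAC8, with the lowest share in HDAC8 1. A list of 8 melanocyte markers had summed normalized counts of 244961 to 328760 in EV and 137043 to 182218 in HDAC8. PMEL made up most of that sum. By the rule for calls given below, 5 of the 8 were called lower, where 5.44% of all genes with an adjusted p were. MITF, SOX10 and TYRP1 were not called. MITF ran from 11313.6 to 17935.2 and SOX10 from 9685.5 to 18067.9 over all libraries, while MLANA was at 8323.2 to 9052.3 in EV and 236.9 to 372.4 in HDAC8, and TYRP1 was at 21.7 to 62.9 in EV and 0 to 17.4 in HDAC8. A list of 9 fibroblast and mural markers summed to 2764 to 3201 in EV and 1586 to 2819 in HDAC8. LUM made up most of that sum, DCN was at 0 in all 6 libraries, POSTN had at most 4 counts in any library, and PDGFRA and RGS5 were called higher. The other tested genes of this list were not called, and its median log2 fold change was -0.60, with LUM at -0.60, FAP at -1.64, ACTA2 at -1.61 and PDGFRB at -2.79. The 5 endothelial markers summed to 98 to 203 in EV and 123 to 263 in HDAC8, with CDH5 at 0. The 5 leukocyte markers summed to 2301 to 3302 in EV and 4273 to 6165 in HDAC8, nearly all of it CD68. PTPRC was at no more than 3 counts, and CD3E was at 0 in EV and 50.1 to 91.1 in HDAC8. CD68 and CD3E, the genes of this list with an adjusted p, were called higher (DESeq2 adjusted p = 3.13e-05 and 1.10e-06). Of all genes with an adjusted p, 5.57% were. The 4 keratinocyte markers summed to 38 to 87 in EV and 0 to 41 in HDAC8. The part of other cell types in the collagen values was not tested. In libraries made from whole cultures, fewer cells of a kind and less RNA per cell cannot be told apart.

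Of the 44 collagen genes, 8 were called higher and 1 was called lower in HDAC8. Calls needed an adjusted p below 0.05 in DESeq2 together with a difference of 0.58 or more, up or down, on the log2 scale. The 8 were COL4A1 and COL4A2 of type IV, COL6A1 and COL6A3 of type VI, COL9A2, COL11A2, COL13A1 and COL25A1, and the gene called lower was COL5A1. Over all genes with an adjusted p, 5.57% were called higher and 5.44% lower. Only 35 of the collagen genes had an adjusted p, since COL6A5 had a total under 10 counts and 8 further genes were too low for DESeq2 to give one. The members' count is therefore one over 35 genes and not over 44.

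The 3 values of each group did not overlap in 15 of the 43 tested collagen genes, of which 10 were higher and 5 lower in HDAC8. Over all tested genes, 11.3% were higher and 12.7% lower without overlap. The share of collagen genes without overlap and lower was thus close to that of all genes. The median log2 fold change was 0.44 over the 43 tested collagen genes and 0.00 over all tested genes. It was 0.42 with genes under the floor of 3 counts throughout 1 group set at their bound. Without HDAC8 1 the collagen median was 0.05, so its size rested on that library. Counts of all collagen genes together took 0.0853%, 0.0935% and 0.0766% of the EV libraries and 0.228%, 0.111% and 0.129% of the HDAC8 libraries. The groups did not overlap in this share, and HDAC8 2 was nearest to EV.

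**Figure D1:**
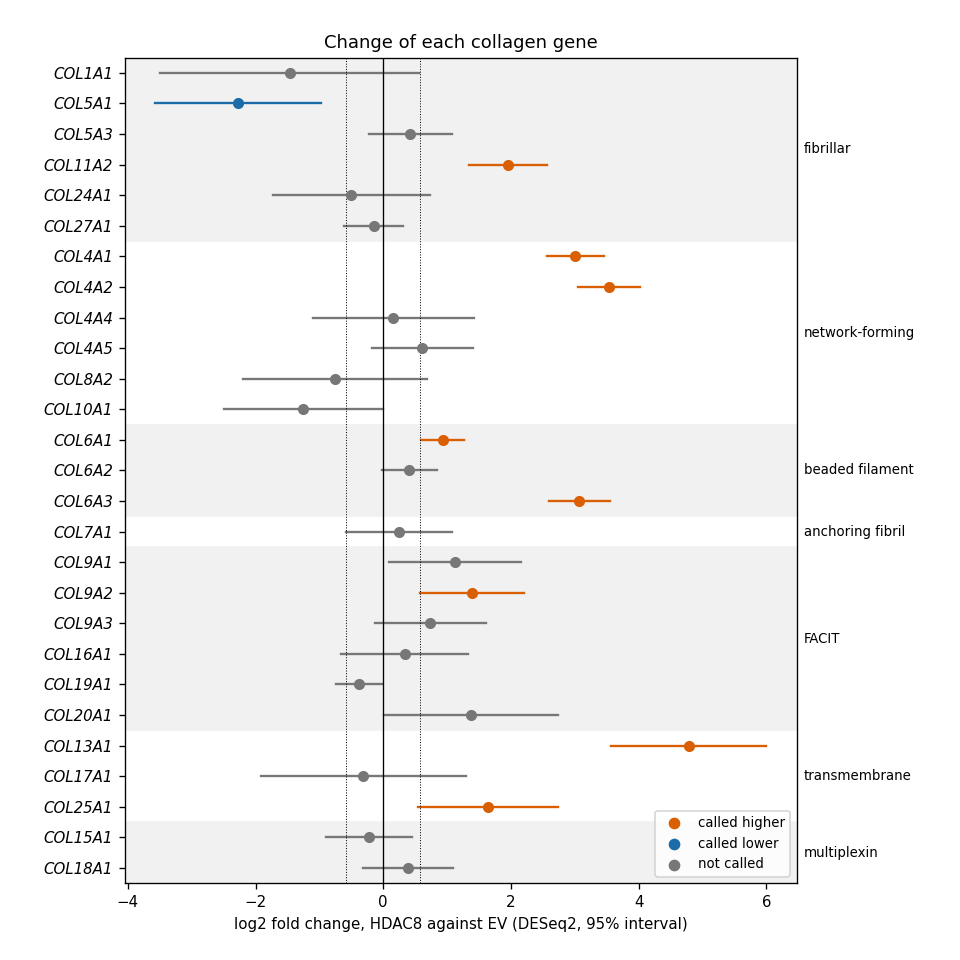
Log2 fold change of HDAC8 over EV (x axis) for the 27 collagen genes that were called or had a mean of at least 50 normalized counts (y axis), with 95% intervals from the DESeq2 standard error colours for the call and dotted lines at the minimum of 0.58 in either direction. COL13A1, COL4A2, COL6A3 and COL4A1 sit furthest to the right, between 3.01 and 4.79, and COL5A1 at -2.28 is the only gene called lower.

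Among the 9 network-forming collagens, 2 were called higher, where 5.57% of all genes with an adjusted p were. COL4A6 had no adjusted p and could not be called. COL4A1 and COL4A2 encode the chains of the common type IV collagen of basement membranes. They lie head to head on chromosome 13 (GRCh38), COL4A1 on the minus strand at 110148963 to 110307157 and COL4A2 on the plus strand at 110305812 to 110513209, so that they share a promoter region. Their annotated spans overlap at this end, and counting by strand is not stated, so reads from the overlap cannot be assigned to one gene with certainty. COL4A1 had normalized counts of 510.7, 561.3 and 419.7 in EV and 5443.4, 3422.7 and 3163.4 in HDAC8. The lowest HDAC8 library was far above the highest EV library. The mean rose from 497.2 ± 71.8 to 4009.9 ± 1248.3 (SD, n = 3 each), an 8.07-fold difference (95% interval 5.93 to 11.0; 3.01 on the log2 scale, SE 0.23, DESeq2 adjusted p = 1.57e-37). COL4A2 had 447.8, 575.3 and 337.9 in EV and 7417.0, 4099.7 and 4234.9 in HDAC8. It rose 11.6-fold (log2 fold change 3.53, SE 0.25, DESeq2 adjusted p = 2.37e-43). In both genes HDAC8 1 was the highest library, while HDAC8 2 and HDAC8 3 lay close to each other.

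The shared start region of this pair is shown because both of its genes were among the largest rises. In the RefSeq window of COL4A2 (GRCh38.p14, chr13:110307034-110307333, plus strand), COL4A2 starts at position 251 and COL4A1 starts on the opposite strand at position 124, which is 127 bases away. Capitals mark a GC box and a CCAAT box.
COL4A2: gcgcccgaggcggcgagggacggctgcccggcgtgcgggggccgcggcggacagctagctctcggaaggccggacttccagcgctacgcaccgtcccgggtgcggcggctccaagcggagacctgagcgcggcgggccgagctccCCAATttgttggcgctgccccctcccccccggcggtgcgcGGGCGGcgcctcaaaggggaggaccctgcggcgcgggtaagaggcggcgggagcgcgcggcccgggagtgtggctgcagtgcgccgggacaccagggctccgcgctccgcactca
The GC box (GGGCGG) stands at positions 186 to 191 and the CCAAT box at positions 146 to 150, both between the start sites. The window was 77.7% G or C.

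The other type IV genes are arranged in pairs of the same kind, with 419 bases between the starts of COL4A4 and COL4A3 and 1416 between those of COL4A6 and COL4A5. Their products form the specialised basement membranes of kidney, eye, ear and smooth muscle. COL4A5 had 189.8, 278.3 and 266.0 in EV and 573.8, 278.6 and 270.1 in HDAC8, and its log2 fold change of 0.61 did not pass the test (DESeq2 adjusted p = 0.393). HDAC8 1 alone was raised there. COL4A4 was low throughout, with 93.3, 46.7 and 101.5 against 59.9, 97.3 and 112.2. COL4A3 ran from 0 to 20.7, and COL4A6 was seen in EV 2 alone. The rise of type IV transcripts was thus measured in the COL4A1 and COL4A2 pair and was not detected in the other 4 genes at these depths.

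COL8A2 encodes a chain of the short-chain network of Descemet's membrane. It had 116.4, 38.3 and 94.6 in EV and 66.7, 36.9 and 43.6 in HDAC8 (log2 fold change -0.76, DESeq2 adjusted p = 0.631). Its partner COL8A1 ran from 0 to 59.9, with the highest value in HDAC8 1. COL10A1, the collagen of hypertrophic cartilage, had 155.2, 111.1 and 182.2 in EV and 109.5, 31.7 and 46.8 in HDAC8. The groups did not overlap, but the log2 fold change of -1.25 did not pass (DESeq2 adjusted p = 0.205). Without HDAC8 1 it was -1.93, and passed (DESeq2 adjusted p = 0.019).

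Type VI collagen is assembled from the products of COL6A1, COL6A2 and COL6A3, and its genes did not change by the same amount. COL6A3 (chromosome 2, 237324003 to 237414328, minus strand) encodes the long chain. It had 199.2, 327.8 and 236.4 in EV and 2518.2, 1916.2 and 2000.4 in HDAC8, an 8.42-fold rise (95% interval 6.07 to 11.7; 3.07 on the log2 scale, SE 0.24, DESeq2 adjusted p = 1.82e-34). COL6A1 (chromosome 21, 45981770 to 46005050, plus strand) had 4844.5, 6822.4 and 4824.2 in EV and 12013.9, 8909.1 and 10550.9 in HDAC8. It rose 1.91-fold (log2 fold change 0.93, SE 0.17, DESeq2 adjusted p = 3.28e-06). Here HDAC8 1 was less far from the other HDAC8 libraries than for most collagen genes, at 1.23 times their mean for COL6A1 and 1.29 times for COL6A3. COL6A2 had 3814.8, 4585.6 and 3004.6 in EV and 6879.1, 3828.3 and 4470.1 in HDAC8. The groups overlapped and the log2 fold change of 0.41 did not pass (95% interval -0.02 to 0.84; DESeq2 adjusted p = 0.236). COL6A6 had 27.4 to 72.7 in all libraries, and COL6A5 was seen in EV 3 alone.

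The start region of COL6A3 is shown because it had the largest rise among the type VI genes. The RefSeq window (GRCh38.p14, chr2:237414115-237414414, minus strand) held none of the 5 motifs searched, so it has no capitals.
COL6A3: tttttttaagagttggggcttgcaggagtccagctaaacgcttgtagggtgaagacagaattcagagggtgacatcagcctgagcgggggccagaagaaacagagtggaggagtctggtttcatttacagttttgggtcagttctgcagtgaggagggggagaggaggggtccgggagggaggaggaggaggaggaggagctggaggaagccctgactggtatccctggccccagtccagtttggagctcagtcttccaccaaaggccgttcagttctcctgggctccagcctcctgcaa
Its share of G and C was 56.3%.

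Of the 11 fibrillar collagen genes, 1 was called higher and 1 lower, where 5.57% and 5.44% of all genes with an adjusted p were. COL1A2, COL3A1 and COL11A1 had no adjusted p and could not be called. Of the 11, 6 had a mean of at least 50 normalized counts. COL11A2 (chromosome 6, 33162681 to 33192499, minus strand), a chain of the cartilage collagen XI, had 453.0, 290.5 and 354.6 in EV and 2170.2, 1012.9 and 1067.2 in HDAC8. It rose 3.87-fold (log2 fold change 1.95, SE 0.31, DESeq2 adjusted p = 3.00e-08). COL11A1, which encodes another chain of collagen XI, was seen in HDAC8 1 alone. COL5A1 (chromosome 9, 134641803 to 134844843, plus strand) encodes the main chain of collagen V, which starts and limits fibril growth. It had 253.8, 314.7 and 371.4 in EV and 77.0, 7.2 and 110.0 in HDAC8. It fell in all 3 HDAC8 libraries, with a log2 fold change of -2.28 (SE 0.66, 95% interval -3.57 to -0.98, DESeq2 adjusted p = 0.00709). Within HDAC8 its values ran from 7.2 to 110.0, so the size of the fall is poorly set. The call was lost without EV 2 (DESeq2 adjusted p = 0.0541) or without EV 3 (DESeq2 adjusted p = 0.081).

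COL5A3, which encodes an alternative chain of collagen V, had 654.3, 648.1 and 612.7 in EV and 1375.8, 515.1 and 669.7 in HDAC8 (log2 fold change 0.42, DESeq2 adjusted p = 0.516). The remaining chain, COL5A2, had at most 26.6. COL1A1 encodes the main chain of collagen I, the collagen of skin and bone. It had 101.7, 95.3 and 105.4 in EV and 79.5, 29.7 and 0 in HDAC8. All 3 HDAC8 values were below EV, but they ran over such a range that the log2 fold change of -1.46 had an SE of 1.03 (DESeq2 adjusted p = 0.439). COL1A2 had at most 18.7 and COL3A1, a major collagen of fibroblasts, at most 16.8. COL2A1 had at most 44.6. Collagens I and III were thus low in all libraries.

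COL27A1 and COL24A1 encode fibrillar collagens of developing cartilage and bone. COL27A1 was abundant, with 2748.4, 2449.7 and 2386.0 in EV and 3167.2, 1507.5 and 2140.9 in HDAC8. Its log2 fold change was -0.15, with a 95% interval of -0.61 to 0.31 (DESeq2 adjusted p = 0.805). COL24A1 had 111.2, 115.8 and 103.4 against 96.6, 34.8 and 102.4. The groups did not overlap, but HDAC8 3 was just below the lowest EV library (log2 fold change -0.50, DESeq2 adjusted p = 0.745).

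The start region of COL5A1 is shown as that of the only collagen gene called lower (GRCh38.p14, chr9:134641553-134641852, plus strand, start at position 251). Capitals mark GC boxes, read on the opposite strand.
COL5A1: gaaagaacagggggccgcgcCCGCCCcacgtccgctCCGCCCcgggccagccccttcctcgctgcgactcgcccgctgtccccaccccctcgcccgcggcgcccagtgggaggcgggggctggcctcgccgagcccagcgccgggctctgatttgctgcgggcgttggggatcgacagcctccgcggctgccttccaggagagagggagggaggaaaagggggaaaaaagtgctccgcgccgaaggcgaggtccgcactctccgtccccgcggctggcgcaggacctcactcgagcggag
The GC boxes stood at positions 21 to 26 and 37 to 42, and 74.0% of the window was G or C.

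Transmembrane collagens had the largest fold change of all called collagen genes. COL13A1 (chromosome 10, 69801880 to 69964275, plus strand) encodes a collagen of cell adhesion sites and the neuromuscular junction. It had 8.4, 11.2 and 4.9 in EV and 287.3, 180.3 and 211.3 in HDAC8. The mean was 8.2 ± 3.1 in EV and 226.3 ± 55.1 in HDAC8 (SD, n = 3 each), so the transcript went from near the floor to a moderate level. The rise was 27.6-fold (95% interval 11.9 to 64.1; 4.79 on the log2 scale, SE 0.62, DESeq2 adjusted p = 1.18e-12). COL25A1 (chromosome 4, 108808725 to 109302752, minus strand), known as the precursor of the CLAC peptide of amyloid plaques, had 47.2, 60.7 and 73.9 in EV and 197.5, 106.5 and 262.4 in HDAC8. It rose by 1.64 on the log2 scale (SE 0.56, DESeq2 adjusted p = 0.0296). This call was lost with edgeR (adjusted p = 0.0611), with limma-voom (adjusted p = 0.111), and in DESeq2 without EV 1, EV 2, EV 3, HDAC8 1 or HDAC8 3. COL17A1, a hemidesmosome protein, had 34.6, 71.0 and 74.9 against 80.4, 42.0 and 22.9 (DESeq2 adjusted p = 0.908). COL23A1 was seen in HDAC8 1 alone.

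The start region of COL13A1 is shown because this gene was close to the floor in EV (GRCh38.p14, chr10:69801656-69801955, plus strand, start at position 251). Capitals mark a TATA box sequence.
COL13A1: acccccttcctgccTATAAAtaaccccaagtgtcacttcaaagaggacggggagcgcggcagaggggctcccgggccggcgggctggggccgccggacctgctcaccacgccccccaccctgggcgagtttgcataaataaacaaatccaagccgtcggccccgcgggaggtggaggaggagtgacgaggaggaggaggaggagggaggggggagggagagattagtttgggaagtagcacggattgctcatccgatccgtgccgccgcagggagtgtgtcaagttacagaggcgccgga
The TATAAA stood at positions 15 to 20, far upstream of the start. The window was 64.0% G or C.

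Start windows were matched for 32 of the 44 genes, and 31 of the windows lay at the start of the GENCODE canonical transcript. Over both strands, GGGCGG (the GC box) was in 19 of the 31 windows and in 45.0% of all 35116 windows. CCAAT was in 9 of the 31 and 34.6% of all, and TATAAA in 6 of the 31 and 11.5% of all. TGANTCA, the AP-1 site that JUN proteins bind, was in 0 of the 31 and 7.71% of all. CATGTG, an E-box form bound by MITF, was in 0 of the 31 and 11.1% of all. No 2 of these motifs overlap in the windows printed here. A window without a motif says only that these letters are not in these 300 bases.

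FACIT collagens held the most abundant collagen transcript, COL9A3. Collagen IX coats the fibrils of cartilage and is assembled from COL9A1, COL9A2 and COL9A3. COL9A2 (chromosome 1, 40300489 to 40317813, minus strand) had 153.1, 185.9 and 124.1 in EV and 600.3, 340.0 and 270.1 in HDAC8. It rose 2.62-fold (log2 fold change 1.39, SE 0.41, DESeq2 adjusted p = 0.00968), but the call was lost without EV 1 (adjusted p = 0.0502), without EV 3 (adjusted p = 0.0783) and without HDAC8 1 (adjusted p = 0.12). COL9A3 had 10449.3, 13238.5 and 10203.0 in EV and 29948.3, 12426.0 and 14229.3 in HDAC8. HDAC8 1 was well above every other library, while HDAC8 2 lay within the EV range. The log2 fold change was 0.74 (95% interval -0.13 to 1.61, DESeq2 adjusted p = 0.322). It passed in edgeR (adjusted p = 0.0277) and in DESeq2 without HDAC8 2 (adjusted p = 0.000944) or without HDAC8 3 (adjusted p = 0.014). COL9A1 had 103.8, 67.2 and 92.6 against 279.6, 116.8 and 177.5, with no overlap and a log2 fold change of 1.12 (DESeq2 adjusted p = 0.162). It passed when only genes with at least 10 counts in every library were tested (adjusted p = 0.0459).

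COL19A1, first found in rhabdomyosarcoma cells, had 3589.4, 3608.7 and 4266.6 in EV and 3531.5, 2317.7 and 2960.9 in HDAC8. All HDAC8 values were below EV, but the log2 fold change of -0.38 did not pass (95% interval -0.74 to -0.02, DESeq2 adjusted p = 0.177). COL20A1 had 46.1, 37.4 and 57.1 against 214.6, 58.4 and 89.3, again without overlap (log2 fold change 1.37, DESeq2 adjusted p = 0.208). COL16A1 had 395.3, 320.3 and 271.9 against 826.0, 137.2 and 282.0. Its HDAC8 values lay both above and below EV (log2 fold change 0.34, DESeq2 adjusted p = 0.802). COL12A1, COL14A1, COL21A1 and COL22A1 had at most 41.9.

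COL7A1 encodes the anchoring fibril collagen. It had 796.9, 566.9 and 695.5 in EV and 1611.0, 421.9 and 407.3 in HDAC8, so that HDAC8 1 was above all EV libraries and the other HDAC8 libraries were below them. The log2 difference of 0.25 had an SE of 0.42 (DESeq2 adjusted p = 0.834), and it was -0.73 without HDAC8 1 (DESeq2 adjusted p = 0.0602). The multiplexins COL15A1 and COL18A1 are proteoglycans of basement membrane zones, and COL18A1 is the source of endostatin. COL15A1 had 426.8, 456.7 and 391.1 against 515.6, 307.2 and 266.8, and COL18A1 had 381.7, 678.0 and 517.2 against 1086.0, 429.1 and 551.0. Neither passed (DESeq2 adjusted p = 0.806 and 0.606).

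**Figure D2:**
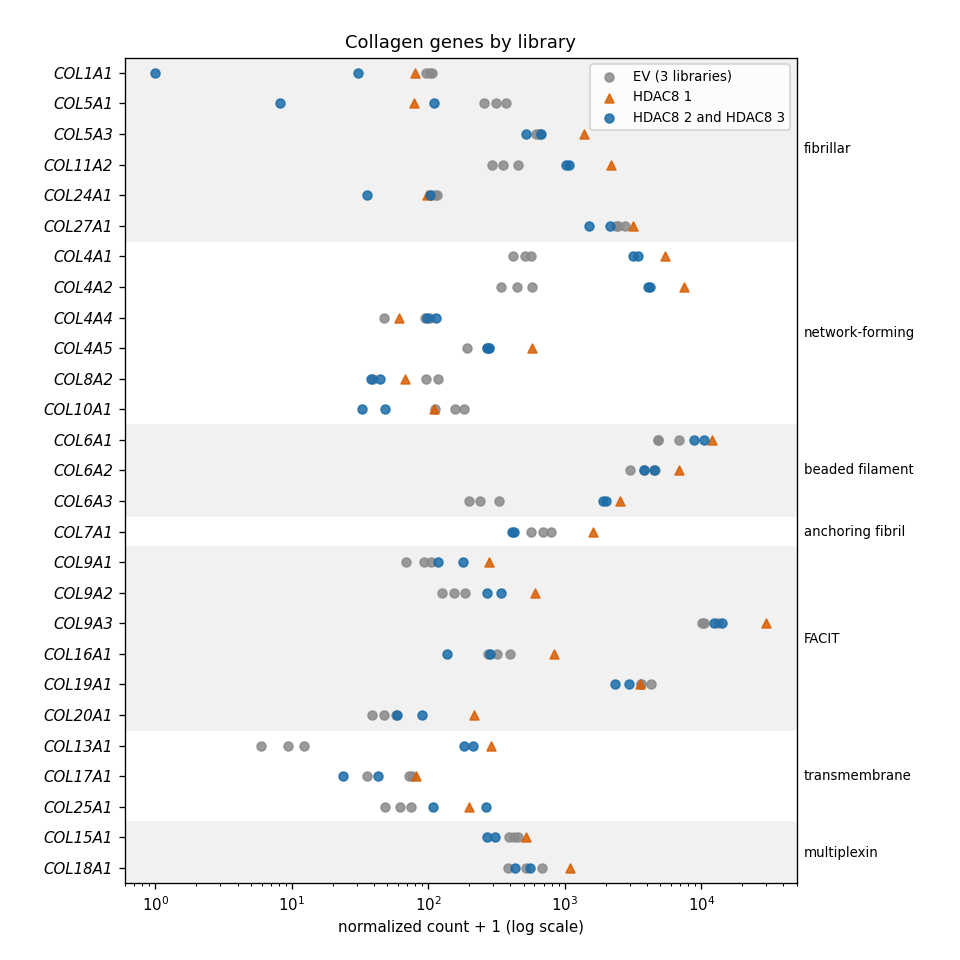
Normalized counts (log axis of count + 1) of the 27 collagen genes in each of the 6 libraries, ordered by class. HDAC8 1 was the highest of the HDAC8 libraries in 23 of these genes, which was not counted over all genes. For COL4A1, COL4A2, COL6A3 and COL13A1 all 3 HDAC8 libraries lay far above EV.

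The other 17 genes had a mean under 50 normalized counts and were not called. Their largest mean was 46.6, that of COL6A6, and 15 of them were at 0 in at least 1 library. COL26A1 and COL28A1, which belong to none of the classes above, had at most 15.9 and 16.2. Of the 17, 6 were seen in 1 library only, which were COL4A6 and COL26A1 in EV 2, COL6A5 in EV 3, and COL11A1, COL21A1 and COL23A1 in HDAC8 1. A count of 0 allows up to 3 counts, or 2.57 to 3.27 normalized counts depending on the library. Differences for these genes were not detectable at this depth.

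HDAC8 1 stood apart from the other HDAC8 libraries across the family, and not in collagen genes alone. Over the whole table, the chi-square per degree of freedom was 167.6 against HDAC8 2 and 112 against HDAC8 3. Between HDAC8 2 and HDAC8 3 it was 27.55. Over the 27 genes with a mean of at least 50, the median difference from the EV mean on the scale of log2(normalized count + 1) was 1.13 in HDAC8 1, 0.01 in HDAC8 2 and 0.14 in HDAC8 3. Over all 14451 genes at that level it was -0.03, -0.01 and -0.01. Division by size factors holds these medians near 0, so they cannot show whether HDAC8 1 differed over all genes. HDAC8 1 was at least 1.5 times both other HDAC8 libraries in 18 of the 27 collagen genes, against 11.0% of all genes at that level. COL4A4 alone was lower in HDAC8 1 than in both others by that factor. In 19 of the 27 genes HDAC8 1 was the highest of all 6 libraries, but this was not counted over all genes. In COL7A1, COL15A1, COL16A1, COL17A1 and COL27A1, HDAC8 1 was above the EV mean while HDAC8 2 and HDAC8 3 were both below.

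Genes rich in G and C also had higher counts in HDAC8 1 than in the other HDAC8 libraries, and collagen transcripts are rich in both bases. Over all genes in 5 groups of equal size by GC content of the transcript, the median log2 ratio of HDAC8 1 to the mean of HDAC8 2 and HDAC8 3 rose from -0.49 in the lowest group to 0.39 in the highest. Of the 27 collagen genes, 16 were in the highest GC group. Their median ratio was 1.02 on the log2 scale. The 5 collagen genes in the next group had a median of 0.84, where all genes had 0.23. By transcript length the median of all genes fell from 0.14 in the shortest group to -0.18 in the longest, in which 15 collagen genes had a median of 0.80. The part of GC content, length or mitochondrial share in the collagen values was not tested beyond the fits that follow. With normalization within 20 bins of GC content, DESeq2 called the same 9 collagen genes, and the collagen median was 0.29. With bins of transcript length it also called the same 9, with a median of 0.53.

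**Figure D3:**
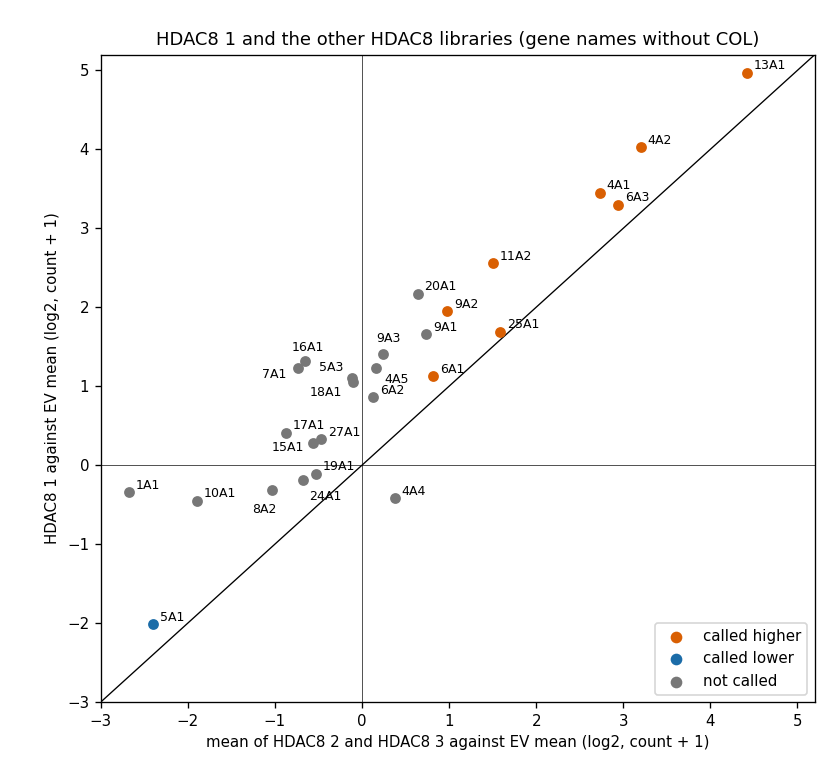
Log2 difference from the EV mean in HDAC8 1 (y axis) against the mean of HDAC8 2 and HDAC8 3 (x axis) for the 27 collagen genes, with the line of equal values. Most genes lie above the line, and COL7A1 and COL16A1 lie above 0 in HDAC8 1 and below 0 in the others.

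Levels of different genes can be compared only per length, so normalized counts were divided by the length in kilobases of the canonical transcript. On this scale COL9A3 was the highest collagen in both groups, at 4520 ± 675 in EV and 7560 ± 3860 in HDAC8 (SD, n = 3 each). COL6A1 (1310 ± 273 in EV) and COL6A2 (1100 ± 229) came next. Their ranges overlapped in EV, but within each EV library COL6A2 was below COL6A1, at 0.961, 0.82 and 0.76 times its level. COL19A1 (437 ± 44.1) and COL27A1 (324 ± 24.8) followed. The top 3 made up 78.2% to 82.8% of the collagen level per length in EV and 76.0% to 77.5% in HDAC8. In HDAC8, COL4A2 (815 ± 291) moved from rank 11 to 4 and COL4A1 (613 ± 191) from rank 9 to 5. The ranges of these neighbours overlapped, but within each HDAC8 library COL4A2 was above COL4A1, at 1.38, 1.22 and 1.36 times its level. COL6A3 moved from rank 18 to 9 and COL13A1 from 29 to 15. COL4A1 and COL4A2 together took 1.49% to 1.81% of the level per length in EV and 9.12% to 10.7% in HDAC8. In that share HDAC8 1 lay next to HDAC8 3, at 9.12% and 9.23%.

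**Figure D4:**
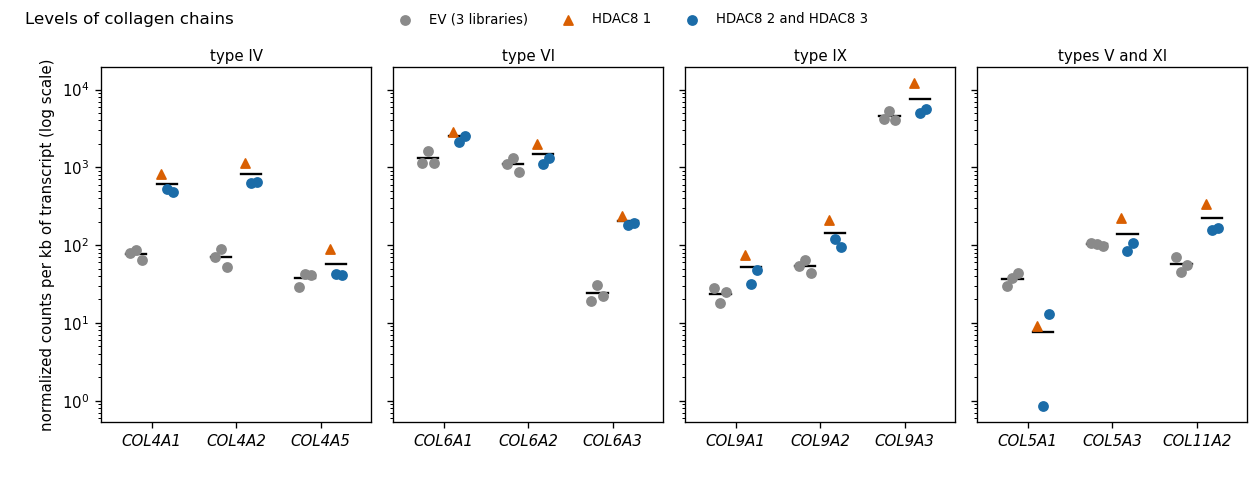
Normalized counts per kilobase of transcript (log axis) for chains of collagens IV, VI and IX and of collagens V and XI, 1 point per library and a bar at the mean of each group of 3. COL4A1 and COL4A2 rose side by side, while COL6A3 rose from 24.2 to 204 and lay under COL6A1 and COL6A2.

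Ratios between chains of 1 collagen were taken within each library, per length, so that a factor common to all genes of a library cancels. An effect of GC content does not cancel where the chains differ in it. COL4A2 had 61.8% G or C and COL4A1 55.2%, and COL6A1 had 63.5% and COL6A3 53.1%. The part of GC content in these ratios was not tested. The ratio of COL4A2 to COL4A1 was 0.89, 1.04 and 0.817 in EV and 1.38, 1.22 and 1.36 in HDAC8. The groups did not overlap (exact two-sided permutation p = 0.1, the smallest that 3 against 3 allows). COL6A3 to COL6A1 was 0.0164, 0.0192 and 0.0196 in EV and 0.0836, 0.0858 and 0.0757 in HDAC8 (exact permutation p = 0.1). In this ratio HDAC8 1 lay between the other HDAC8 libraries. COL6A2 to COL6A1 was 0.961, 0.82 and 0.76 in EV and 0.699, 0.524 and 0.517 in HDAC8 (exact permutation p = 0.1). COL9A2 to COL9A3 was 0.0119 ± 0.00113 in EV and 0.0194 ± 0.004 in HDAC8 without overlap, and COL9A1 to COL9A3 overlapped (exact permutation p = 0.4). The ratio of COL5A3 to COL5A1 was 2.24 to 3.51 in EV and 8.28 to 97.7 in HDAC8, where COL5A1 was low. COL4A5 to COL4A1 went from 0.372 to 0.635 in EV to 0.0815 to 0.106 in HDAC8. With 7 ratios and this number of libraries, none could pass 0.05.

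Genes that build, process, bind or degrade collagen were counted from lists of 66 genes, of which 57 were tested. Of the 55 with an adjusted p, 15 were called higher and 7 lower, where 5.57% and 5.44% of all genes were. In 13 of the 22 the call held in every alternative that gave an adjusted p.

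The list of genes linked to the folding, modification and export of procollagen had 7 genes called higher and 1 lower of 21. Its median log2 fold change was 0.35. Of all genes with an adjusted p, 5.57% were called higher and 5.44% lower. PLOD1, a lysyl hydroxylase, had 11090.0, 16351.3 and 12639.2 in EV and 35160.1, 27588.5 and 29828.6 in HDAC8 (log2 fold change 1.21, SE 0.16, DESeq2 adjusted p = 7.30e-12). SERPINH1, the collagen chaperone HSP47, had 12572.7, 18311.6 and 13814.4 against 30606.8, 25367.2 and 26861.2 (log2 fold change 0.89, DESeq2 adjusted p = 7.03e-07). All HDAC8 values of both genes were above all EV values. The prolyl hydroxylase subunit P4HA2 rose by 0.82, the prolyl 3-hydroxylases P3H2 and P3H1 by 0.91 and 0.62, the lysyl hydroxylase PLOD3 by 0.65 and the galactosyltransferase COLGALT1 by 0.67 on the log2 scale. CRTAP, a partner of P3H1, fell by 0.65. P3H1, PLOD3 and COLGALT1 were close to the minimum fold change, and they were not called with normalization within GC bins. P3H1 fell under that minimum without EV 1 or EV 3, PLOD3 without EV 1 or HDAC8 1, and CRTAP without HDAC8 1.

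Of 13 genes for propeptide removal and cross-linking, 12 were tested, with a median of 0.76, and 11 had an adjusted p. Of the 11, 4 were called higher and 1 lower, where 5.57% and 5.44% of all genes were. The lysyl oxidases LOXL4 and LOXL2, which start cross-links, rose by 1.79 and 0.87. LOXL4 had 53.5, 76.6 and 77.8 against 430.1, 153.6 and 137.2, with HDAC8 1 the highest. Its call was lost with limma-voom (adjusted p = 0.0906), and in DESeq2 without EV 1 (adjusted p = 0.0945) or HDAC8 1 (1.07, adjusted p = 0.272). The procollagen C-proteinase BMP1 rose by 0.65 and its enhancer PCOLCE2 by 1.10. The other enhancer, PCOLCE, moved the opposite way, with 946.9, 1385.0 and 918.1 in EV and 318.9, 268.3 and 308.2 in HDAC8 (log2 fold change -1.86, SE 0.27, DESeq2 adjusted p = 2.85e-10). BMP1 was not called with GC or length bins, with limma-voom (adjusted p = 0.0543), or in DESeq2 without EV 1, EV 3, HDAC8 1 or HDAC8 3 (adjusted p from 0.109 to 0.274).

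Of 14 proteins that sit on fibrils, 1 was called higher and 2 lower among the 9 tested, with a median of -0.46. Over all genes with an adjusted p, the shares were 5.57% and 5.44%. Fibronectin, FN1, rose by 0.71 (DESeq2 adjusted p = 7.11e-06). The leucine-rich proteoglycan PRELP had 427.8, 594.0 and 496.5 in EV and 51.3, 90.1 and 91.5 in HDAC8 (log2 fold change -2.71, DESeq2 adjusted p = 1.47e-10). Fibromodulin, FMOD, had 48.2, 11.2 and 4.9 in EV and 0 in all HDAC8 libraries, which makes it at least 7.23-fold lower against a floor of 3 counts per library. The bound rested on EV 1 and was 2.72-fold without it. The FMOD call was lost with edgeR (adjusted p = 0.0965), with limma-voom (adjusted p = 0.0585), and in DESeq2 without EV 2 (adjusted p = 0.0717) or HDAC8 3 (adjusted p = 0.0539).

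Of 10 collagen receptors, 9 were tested, with a median of -0.06, and 8 had an adjusted p. Of the 8, 3 were called higher and 2 lower, where 5.57% and 5.44% of all genes were. The integrin subunits ITGA1 and ITGA2, which pair with ITGB1 to bind collagen, rose by 1.69 and 0.79. ITGA1 had 638.6, 535.1 and 669.9 against 1758.0, 1979.7 and 2191.0 (DESeq2 adjusted p = 1.56e-14), and HDAC8 1 was the lowest of its group. The discoidin domain receptors are tyrosine kinases that bind collagen, and they moved in opposite directions. DDR1 rose by 0.76, with 3075.5, 4314.8 and 3355.3 in EV and 8013.0, 4723.4 and 5462.2 in HDAC8. DDR2 had 1886.4, 2468.4 and 2460.8 in EV and 82.1, 17.4 and 7.6 in HDAC8 (log2 fold change -5.99, SE 0.95, DESeq2 adjusted p = 1.56e-08). MRC2, which takes up collagen, was called lower at -0.62, and the call was lost with size factors from total counts (-0.57, DESeq2 adjusted p = 0.0523) and without EV 2, HDAC8 2 or HDAC8 3 (adjusted p from 0.126 to 0.262). DDR1 was not called without EV 1 (DESeq2 adjusted p = 0.0605) or without HDAC8 1, where it was at 0.51. Of 8 collagen-degrading proteases 6 were tested, and CTSK (cathepsin K) was called lower, with 369.1, 245.6 and 369.4 against 47.9, 77.8 and 63.2 (log2 fold change -2.38, DESeq2 adjusted p = 2.57e-06).

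**Figure D5:**
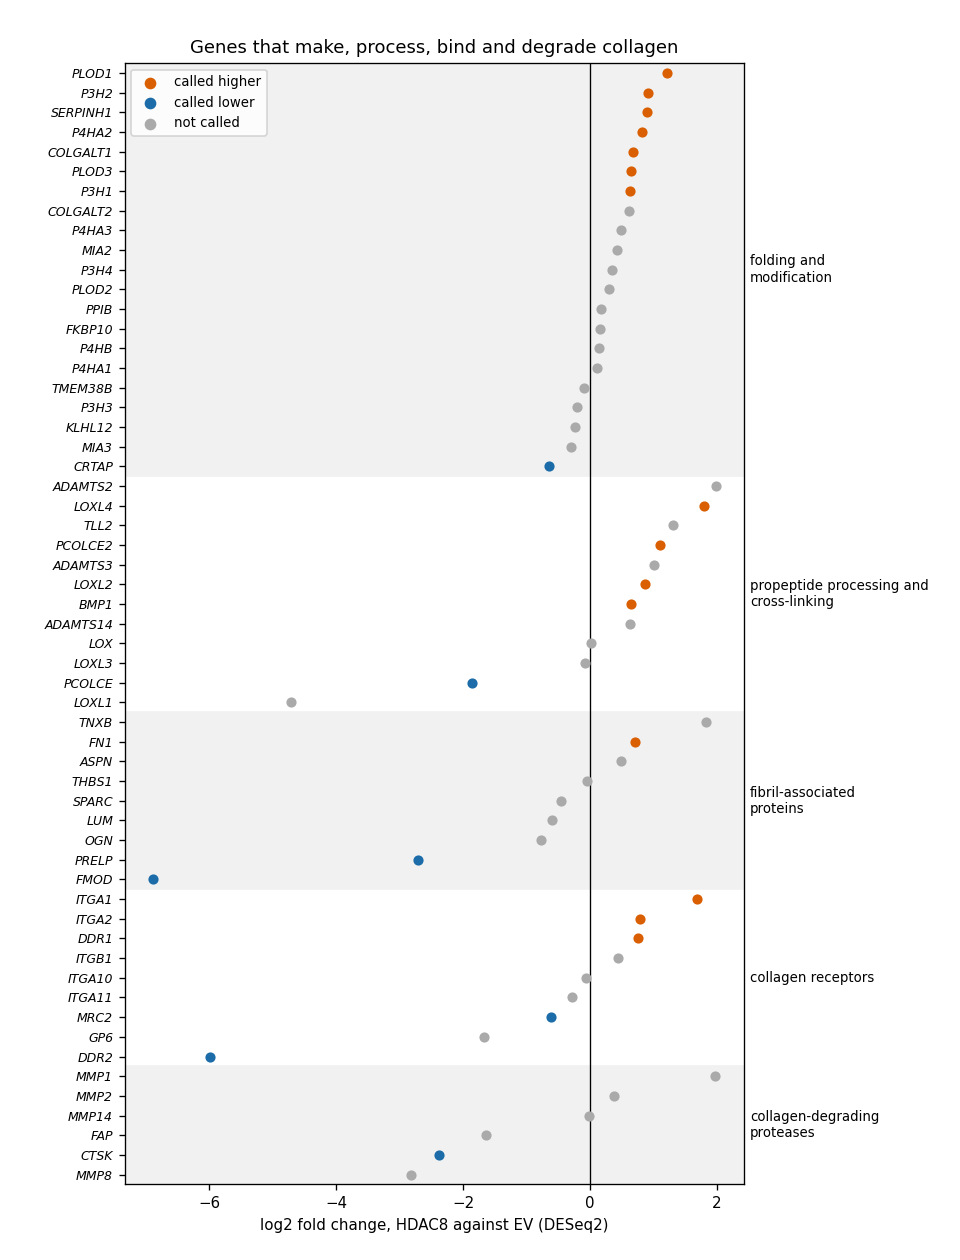
Log2 fold change of HDAC8 over EV (x axis) for the tested genes of the 5 collagen pathway lists, 1 point per gene with colours for the call. Of the called genes, DDR2 at -5.99 and PRELP at -2.71 lie far to the left, and most folding genes lie between 0 and 1.21. MMP8 at -2.83 and LOXL1 at -4.72 were not called. The points of FMOD and LOXL1 are fitted values and no bounds, since their HDAC8 libraries were at 0.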

How the data were processed

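RNA-seq of WM164 cells was analysed from 3 EV and 3 HDAC8 libraries. The authors trimmed reads with Trimmomatic, aligned them with STAR and deposited RSEM expected counts per gene, not scaled between libraries. The genome build and strand setting are not given in the sources used here, and overlapping and antisense genes are uncertain. The deposited expected counts were rounded. Positions, lengths and GC content came from GENCODE 44 (GRCh38), joined by Ensembl identifier, and start windows from RefSeq (GRCh38.p14). The members and lists were chosen with earlier results of these data known.

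The groups were compared in DESeq2 1.42.0 (R 4.3.3, two-sided Wald test) on the 26162 genes with 10 counts or more in total, of which 21021 had a Benjamini-Hochberg adjusted p. Genes with no adjusted p were not counted as called. Normalized counts are counts divided by DESeq2 size factors. Values in every library are given for collagen genes that were called or had a mean of at least 50, and pathway genes are named where called. Alternatives used edgeR 4.0.16, limma 3.58.1, other size factors and filters, a replicate block, and each library left out. The fits were tested on simulated data, where DESeq2 recovered more changed genes and made more false calls than edgeR or limma-voom. The simulated libraries used the fitted dispersions and had no shift of a single library or by GC content. They therefore give no error rate for the real libraries. Intervals are at the 95% level. Floors of 3 counts cover counting error only. Within a group, libraries differed beyond sampling noise. The chi-square per degree of freedom was 167.6 for HDAC8 1 against HDAC8 2 and 112 for HDAC8 1 against HDAC8 3. It was 27.55 for HDAC8 2 against HDAC8 3 and 41.96 to 51.57 for the EV pairs. Deviations of libraries with the same number correlated at -0.027, -0.066 and 0.04, so no pairing by number was seen. With 3 libraries per group, this cannot show that those libraries were handled apart.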

Additional observations from a re-analysis of the deposited data

How the results depend on the processing

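Over 15 alternatives DESeq2, edgeR or limma-voom called 6 to 9 collagen genes higher, and COL4A1, COL4A2, COL6A1, COL6A3, COL11A2 and COL13A1 kept their call in every alternative that gave them an adjusted p. Of 402 alternative values for the 27 collagen genes, 372 kept their sign and stayed called or not called, 13 lost the call, 5 gained it and 12 turned direction. The count called lower was 0 with at least 10 counts in every library, a filter that removes COL5A1 and COL13A1. Leaving out each library in turn gave 0 to 2 collagen genes called lower and 746 to 1378 of all genes. COL5A1 was lost without EV 2 or EV 3, and COL10A1 was gained without HDAC8 1.

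The genes that turned direction were not called under any of these settings. COL7A1 was -0.01 with limma-voom, -0.07 with the replicate block and -0.11 with normalization within GC bins. With each library left out, COL7A1 ran from -0.73 to 0.57, COL16A1 from -0.65 to 0.76, COL4A4 from -0.12 to 0.38, COL5A3 from -0.11 to 0.69, COL18A1 from -0.10 to 0.64, COL27A1 from -0.47 to 0.08 and COL17A1 from -0.89 to 0.03. The lowest values of COL5A3, COL7A1, COL16A1 and COL18A1 were those without HDAC8 1. The cause was not tested. Of the 327 alternative values for the 22 called pathway genes, 32 lost the call, among BMP1, LOXL4, FMOD, MRC2, DDR1, P3H1, PLOD3, COLGALT1 and CRTAP.

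The fit with the replicate number as a block called 7 collagen genes higher and 1 lower, with COL25A1 the collagen call it lost and COL16A1 at -0.02. It gave 1075 higher and 1078 lower over all genes, and it also lost BMP1, FMOD, LOXL4 and MRC2. Pairing by number was not seen in the deviations of the libraries, which cannot show that there was none. GC and length bins were chosen after seeing the data. Depth limits the 17 collagen genes with a mean under 50, where no direction can be read.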
